A study of Homo sapiens with 12 samples.

Results

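The 10 genes described here are lymphoid transcription factors: TCF7, LEF1, SATB1, BCL11B, IKZF1, BACH2, TOX, TOX2, FOXP1 and ID3. They were chosen by symbol, and all 10 were found among the 55514 genes of one deposited table and the 44389 genes of the other (56098 symbols in all). Both tables hold RNA sequencing of Jurkat cells, a human line derived from a T cell acute lymphoblastic leukaemia. In the first table, 3 libraries labelled as carrying doxycycline-induced ZNF683 stood against 3 Mock libraries. In the second, cells of a line titled with the protein name of ZNF683, Hobit, were grown with doxycycline at 1 ug/uL (Dox+, 3 libraries) or without it (Dox-, 3 libraries). Doxycycline treatment of the Mock cells is not recorded in the labels, and neither is the vector or promoter that drove ZNF683 or whether the lines were clones. The labels also do not record that replicates were separate cultures, so every p-value below measures only the spread between these libraries, which may be technical.

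Hobit is a zinc finger repressor related to Blimp-1 and is known from tissue-resident and effector lymphocytes. TCF-1, the product of TCF7, and LEF1 are HMG box proteins that bind DNA with beta-catenin or with Groucho/TLE co-repressors. They are known for T lineage commitment in the thymus and for the naive and memory states of mature T cells. The other factors act beside them: SATB1 organises chromatin, BCL11B and Ikaros (IKZF1) guide the T lineage, BACH2 and FOXP1 are known for holding naive cells quiescent, TOX and TOX2 are HMG box factors of thymic selection and of exhausted T cells, and ID3 blocks the E proteins.

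The promoter windows of 4 of these genes are printed because LEF1, IKZF1 and TOX2 are the members whose ZNF683 and Mock values did not overlap, and TCF7 is the close relative of LEF1. They come from RefSeq on GRCh38.p14 and run from 250 bases before to 50 bases after a start site, 5′ to 3′ on the gene's strand. LEF1 has a single window in that table, and for the other 3 genes the window printed is the one that holds a match, their remaining windows holding none. All 4 printed windows lie inside the gene spans of the GENCODE v29 annotation, so they need not hold the most upstream start. TCF7 begins there at chr5:134114711, and LEF1, on the minus strand, at chr4:108168956. The other TCF7 window, chr5:134115363-134115662, is nearer to that beginning. Capitals mark 2 short motifs, searched on both strands: GTGAAAG (or CTTTCAC), a core bound by the Blimp-1 family, and TGGGAA (or TTCCCA), a core bound by Ikaros.
LEF1, chr4:108166252-108166551, minus strand: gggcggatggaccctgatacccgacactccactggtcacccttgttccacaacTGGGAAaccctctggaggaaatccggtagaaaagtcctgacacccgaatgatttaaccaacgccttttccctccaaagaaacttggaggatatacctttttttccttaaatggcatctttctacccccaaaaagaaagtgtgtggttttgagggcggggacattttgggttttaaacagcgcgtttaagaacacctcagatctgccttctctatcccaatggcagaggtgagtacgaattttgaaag
IKZF1, chr7:50304466-50304765, plus strand: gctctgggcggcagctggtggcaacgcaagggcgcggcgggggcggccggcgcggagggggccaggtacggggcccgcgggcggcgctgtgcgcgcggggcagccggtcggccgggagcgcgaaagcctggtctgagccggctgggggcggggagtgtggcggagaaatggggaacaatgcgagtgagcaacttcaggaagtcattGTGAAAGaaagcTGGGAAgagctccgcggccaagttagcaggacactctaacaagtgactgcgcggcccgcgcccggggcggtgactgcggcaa
TOX2, chr20:43915880-43916179, plus strand: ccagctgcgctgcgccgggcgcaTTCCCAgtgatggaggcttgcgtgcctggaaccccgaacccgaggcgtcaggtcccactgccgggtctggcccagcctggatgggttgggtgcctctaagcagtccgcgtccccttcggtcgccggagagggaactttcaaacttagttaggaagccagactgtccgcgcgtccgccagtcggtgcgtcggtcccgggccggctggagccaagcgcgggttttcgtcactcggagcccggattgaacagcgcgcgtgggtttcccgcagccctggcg
TCF7, chr5:134123368-134123667, plus strand: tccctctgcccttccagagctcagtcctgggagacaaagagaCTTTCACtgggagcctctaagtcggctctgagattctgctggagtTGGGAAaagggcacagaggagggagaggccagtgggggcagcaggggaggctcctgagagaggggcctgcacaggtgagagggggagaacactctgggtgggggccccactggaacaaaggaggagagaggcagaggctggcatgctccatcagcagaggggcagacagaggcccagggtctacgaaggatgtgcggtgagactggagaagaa

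The printed IKZF1 window held both motifs, GTGAAAG from base 207 and TGGGAA from base 219. The printed TCF7 window also held both, CTTTCAC from base 43 and TGGGAA from base 88. The LEF1 window held TGGGAA from base 54, and the printed TOX2 window held TTCCCA from base 24. Of 21 windows listed for 9 of the 10 genes, 2 held the Blimp-1 family core and 5 the Ikaros core, against 3.95% and 24% of 35116 windows of the same length over all genes. A TCF/LEF core, CTTTGAT (or ATCAAAG), was in 0 of the 21 windows and in 2.62% of all. A match is a description of the letters and not a binding site.

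Values are TPM, an abundance per transcript length scaled to a fixed total in each library, so levels can be set side by side between genes. Because TPM holds no count of reads, library depth is unknown here. The library sums over the listed genes lay between 992727 and 998497. A single transcript, AL135790.1, took 50.7% of the Dox- 1 library and 12.8% of Dox- 2, against 6.65% to 10.5% of the other 4 doxycycline libraries and 4.94% to 7.96% of the ZNF683 and Mock libraries. The heat shock gene HSPA6 had 0.515, 0.399 and 0.618 TPM in ZNF683 libraries, against 6.85, 5.88 and 4.06 TPM in Mock, without overlap. In the second table it stood at 637 TPM in Dox- 2 and at 0.351 TPM or less in each of the other 5 doxycycline libraries. The Dox+ against Dox- changes of the 10 genes are therefore also given after median-of-ratios scaling, for which the median change over the whole table was 0.00 on the log2 scale (0.32 as deposited), and scaled without Dox- 2. The ZNF683 transcript was 1.17, 1.76 and 1.04 TPM in libraries labelled ZNF683, against 0.715, 1.59 and 0.681 TPM in Mock. It was 0.453, 0.774 and 0.571 TPM in Dox+, against 0.115, 0.239 and 0.451 TPM in Dox-. These low levels do not check the labels.

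The 10 factors covered a wide range of levels in these cells. LEF1 was the highest of them, with 855 ± 155 TPM in libraries labelled ZNF683 and 624 ± 53.2 TPM in Mock (SD, n = 3 each), and its mean over the 6 libraries was above 99.1% of the genes tested in that table. ID3 followed with 418 ± 77.5 TPM in libraries labelled ZNF683 and 406 ± 27.1 TPM in Mock. IKZF1 and TCF7 came next, and in Mock their libraries overlapped, at 117 to 132 TPM for IKZF1 and 105 to 119 TPM for TCF7. TOX, SATB1 and FOXP1 followed in Mock at means of 86.5, 73.2 and 54.6 TPM, with the lowest TOX library above the highest SATB1 library. BCL11B stood at 14.5 TPM, BACH2 at 5.62 and TOX2 at 3.44, and the mean of TOX2 over the 6 libraries was above 35.4% of the genes tested. The order in Dox+ was alike at the top, with LEF1 at 1294 ± 81.3 TPM, ID3 at 325 ± 35.9 and IKZF1 at 130 ± 1.05. In Dox+, SATB1, TCF7 and TOX overlapped around means of 86.6, 85.4 and 83.3 TPM, and TOX2 and BACH2 overlapped at 3.91 and 3.86 TPM. Levels across the tables are not tested, since the tables were deposited apart.

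**Figure D1:**
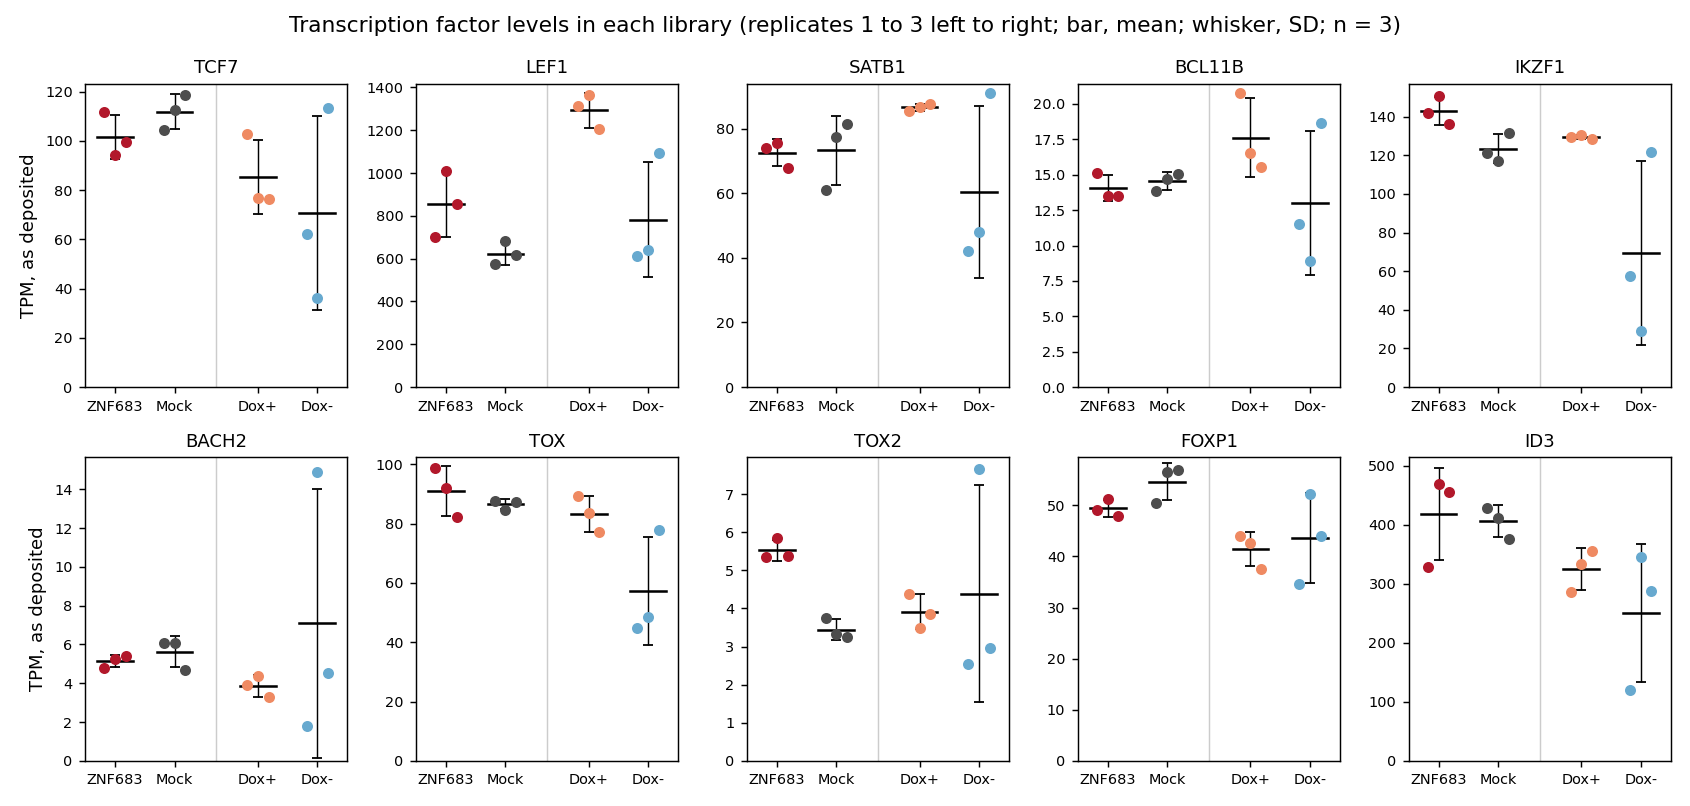
TPM of each of the 10 genes in its own panel (linear axes from 0, scaled per gene), with ZNF683 left of Mock and Dox+ left of Dox-; points are replicates 1 to 3 from left to right, bars are group means and whiskers SD (n = 3). LEF1 lies at or above 575 TPM in each of the 12 libraries, and Dox- 1 and Dox- 2 stand away from Dox- 3 for most genes.

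Expression of ZNF683 against Mock was the first comparison, and none of the 10 factors passed its test. TOX2, LEF1 and IKZF1 had higher values in every ZNF683 library than in any Mock library, and the other 7 overlapped. As deposited, 5 of the 10 had positive and 5 negative log2 changes, with a median of 0.01, beside 54.9% positive and a median of 0.03 over all 16588 genes tested. By limma with Benjamini-Hochberg adjustment, 0 of the 10 passed 0.05, beside 0.0301% of all genes tested (5 genes). At an unadjusted p under 0.05 there were 2 (LEF1 and TOX2), beside 13% of all genes. Groups that did not overlap were found for 3 of the 10, all higher in ZNF683, beside 17.2% of all genes (8.71% higher and 8.51% lower). An exact two-sided permutation test of 3 libraries against 3 cannot go below p = 0.1, the value reached by all 3 genes.

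TCF7 and LEF1, the pair of TCF/LEF factors, had log2 changes of opposite sign, and neither passed. TCF7 had 112, 94.1 and 99.7 TPM in ZNF683 libraries, against 105, 112 and 119 TPM in Mock. The 2 groups overlapped, since 1 ZNF683 library lay inside the Mock range, and the log2 change was -0.14 ± 0.11 (SE, limma adjusted p = 0.559). LEF1 had 699.7, 1010.1 and 854 TPM in ZNF683 libraries, against 575, 681 and 616 TPM in Mock. All 3 ZNF683 libraries were above all 3 Mock libraries, but they spread widely, and the lowest was close to the highest Mock value. The log2 change of LEF1 was 0.44 ± 0.15 and the fold of means 1.37, with an unadjusted limma p of 0.0205 and an adjusted p of 0.339. After median-of-ratios scaling TCF7 was at -0.17 ± 0.09, with each ZNF683 library below each Mock library, and LEF1 at 0.41 ± 0.15.

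The ratio of LEF1 to TCF7 within a library does not depend on the scaling. It was 6.27, 10.7 and 8.57 in ZNF683 libraries, against 5.50, 6.05 and 5.19 in Mock. The groups did not overlap, with a mean of 8.52 ± 2.23 in ZNF683 libraries and 5.58 ± 0.435 in Mock (SD, n = 3 each), and the exact two-sided permutation p was 0.1, the smallest this design can give. The choice of this ratio followed from the values of the genes. In the annotation, 279 exonic bases of LEF1 overlap the antisense gene LEF1-AS1 and 210 exonic bases of TCF7 overlap SKP1 on the opposite strand. SATB1 shares 211 exonic bases with TBC1D5 on the same strand, and TOX shares 169 with the antisense gene AC090152.1. In ZNF683 and Mock libraries TBC1D5 was listed at 39.0 to 44.9 TPM and AC090152.1 at 33.2 to 42.7 TPM. IKZF1, BACH2 and FOXP1 overlap genes listed at 0.599 TPM or less in those libraries. Whether the counting used strand is not given in the sources used here, so reads from bases shared with an opposite-strand partner cannot be told apart. Strand would not separate reads from bases shared with a partner on the same strand, such as TBC1D5. SKP1 was listed at 1380.4 to 1517 TPM in ZNF683 libraries and 1322 to 1465 TPM in Mock, over 10 times TCF7. LEF1-AS1 was listed at 23.1 to 33.4 TPM in ZNF683 libraries and 23.1 to 32.9 TPM in Mock, and the groups overlapped.

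In the pair of TOX genes, TOX2 did not overlap between the groups and TOX did. TOX2 had 5.35, 5.84 and 5.38 TPM in ZNF683 libraries, against 3.76, 3.32 and 3.24 TPM in Mock. Every ZNF683 library was above every Mock library, and the gap between the groups was larger than the spread within either. Its mean was 5.52 ± 0.278 TPM in ZNF683 libraries and 3.44 ± 0.278 TPM in Mock, a 1.61-fold difference, with a log2 change of 0.56 ± 0.11, an unadjusted limma p of 0.00124 and an adjusted p of 0.240. TOX had 98.7, 92.1 and 82.2 TPM in ZNF683 libraries, against 87.7, 84.6 and 87.1 TPM in Mock. Its groups overlapped, and the log2 change was 0.07 ± 0.10 (limma adjusted p = 0.759). The ratio of TOX2 to TOX, also chosen after the values were seen, was 0.0542, 0.0635 and 0.0654 in ZNF683 libraries, against 0.0428, 0.0392 and 0.0372 in Mock, with no overlap and an exact permutation p of 0.1.

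Of IKZF1, SATB1, BCL11B and BACH2, only IKZF1 did not overlap between the groups. IKZF1, which encodes Ikaros, had 142, 151 and 136 TPM in ZNF683 libraries, against 121, 117 and 132 TPM in Mock. The lowest ZNF683 value was just above the highest Mock value, and the log2 change was 0.21 ± 0.10 (limma adjusted p = 0.404). SATB1 had 74.1, 75.7 and 67.7 TPM in ZNF683 libraries, inside the Mock range of 61.1, 77.2 and 81.3 TPM, and its adjusted limma p was 0.989. BCL11B, which holds immature thymocytes to the T lineage, had 15.1, 13.5 and 13.5 TPM in ZNF683 libraries, against 13.8, 14.7 and 15.1 TPM in Mock. BACH2, a repressor of effector genes, had 4.79, 5.26 and 5.40 TPM in ZNF683 libraries, against 6.07, 6.10 and 4.70 TPM in Mock. The groups of both genes overlapped, with log2 changes of -0.05 ± 0.10 and -0.10 ± 0.13 and adjusted limma p-values of 0.835 and 0.724.

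FOXP1, a forkhead factor, had 49.1, 51.3 and 48.0 TPM in ZNF683 libraries, against 50.5, 56.5 and 56.8 TPM in Mock. Its groups overlapped as deposited, with a log2 change of -0.14 ± 0.10 (limma adjusted p = 0.518). After scaling, every ZNF683 library was below every Mock library, with a log2 change of -0.17 ± 0.07 (unadjusted p = 0.0478, limma adjusted p = 0.349). ID3 had 329, 469.8 and 455 TPM in ZNF683 libraries, against 429, 412 and 376 TPM in Mock. The ZNF683 libraries lay on both sides of the Mock range, and the log2 change was 0.03 ± 0.15 as deposited (limma adjusted p = 0.947) and -0.01 after scaling. After scaling, 5 of the 10 genes did not overlap, 3 higher (LEF1, IKZF1 and TOX2) and 2 lower (TCF7 and FOXP1), beside 19.5% of all genes (9.44% higher and 10.1% lower), and limma again called 0 of the 10, beside 0.0301% of all genes.

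**Figure D2:**
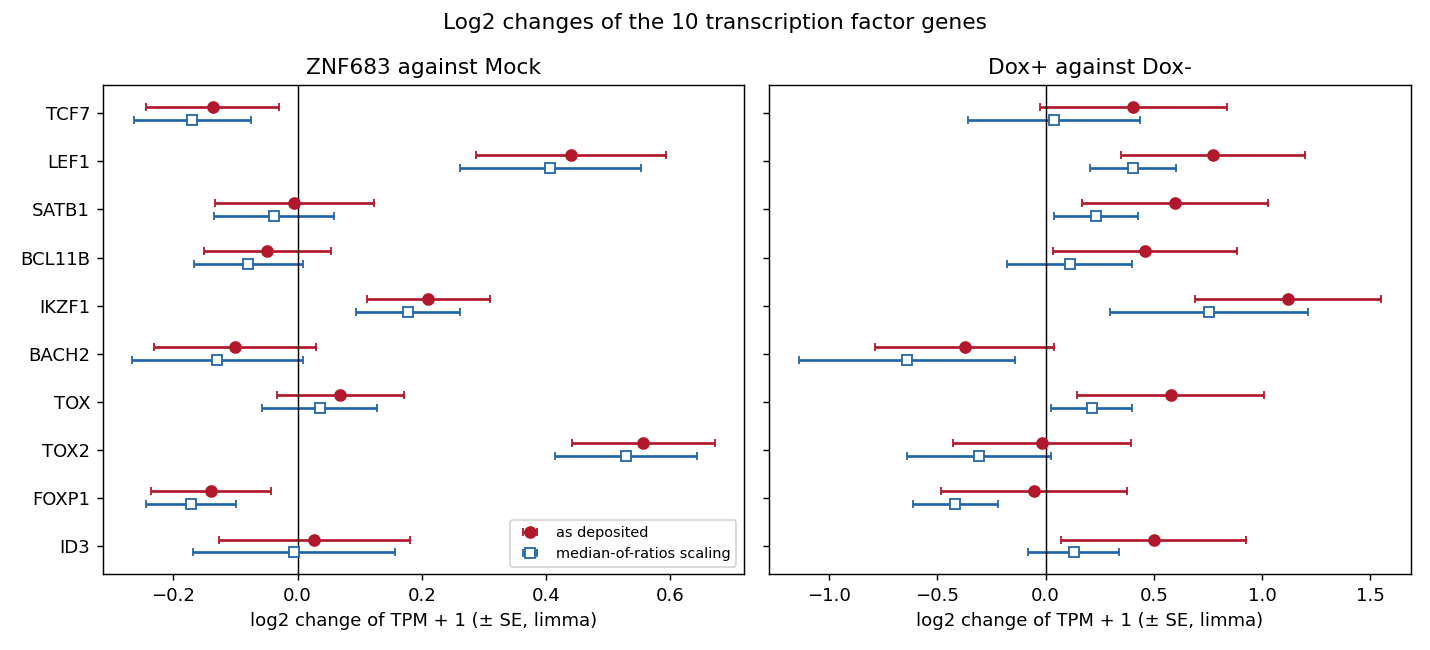
Log2 change of log2(TPM + 1) for each gene (ZNF683 minus Mock and Dox+ minus Dox-), as deposited and after median-of-ratios scaling; bars are limma standard errors. ZNF683 against Mock runs from -0.14 to 0.56 as deposited, and Dox+ against Dox-, drawn on a wider axis, from -0.37 to 1.12 with longer bars.

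Dox+ against Dox- addressed the presence of doxycycline in the Hobit line, and again none of the 10 passed. LEF1 and IKZF1 had higher values in every Dox+ library than in any Dox- library, and the other 8 overlapped. As deposited, 7 of the 10 changes were positive with a median of 0.48, beside 79.1% positive and a median of 0.32 over all 15148 genes tested. After scaling the median of the 10 was 0.12, beside 0.00 for all genes. By limma, 0 of the 10 passed 0.05 after adjustment, beside 0.396% of all genes (60 genes), and 1 of the 10, IKZF1, had an unadjusted p under 0.05, beside 6.34% of all genes. Groups did not overlap for 2 of the 10, both higher in Dox+, beside 8.8% of all genes (7.91% higher and 0.891% lower). After scaling LEF1 and IKZF1 were still the 2 that did not overlap, beside 11.7% of all genes (5.82% higher and 5.86% lower), and limma called 0 genes of all tested (469 at an unadjusted p under 0.05). For each of the 10 the SD was larger over the Dox- than over the Dox+ libraries. As deposited and without Dox- 3, limma called 18.4% of all genes (2788, of which 2754 higher in Dox+) and 4 of the 10 (LEF1, SATB1, IKZF1 and TOX), all higher in Dox+. After scaling without Dox- 3 it called 0.00661% of all genes (1 gene) and 0 of the 10.

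LEF1 had 1313, 1363 and 1204 TPM in Dox+, against 613, 643 and 1093 TPM in Dox-. All Dox+ values were above the Dox- values, and the third Dox- library lay far nearer to Dox+ than to the other 2. The log2 change was 0.77 ± 0.42 as deposited and 0.40 ± 0.20 after scaling (limma adjusted p = 0.737 and 0.754). Scaled values were 1138, 1188 and 1065 in Dox+, against 1057, 644 and 914 in Dox-, so Dox- 1 came to just under the lowest Dox+ library. Without Dox- 2, the scaled change was 0.20. TCF7 had 103, 76.8 and 76.5 TPM in Dox+, against 62.0, 36.3 and 114 TPM in Dox-. Its groups overlapped, with a log2 change of 0.41 ± 0.43 as deposited (limma adjusted p = 0.748), 0.04 ± 0.40 after scaling and -0.44 when scaled without Dox- 2. The ratio of LEF1 to TCF7 was 12.8, 17.8 and 15.7 in Dox+, against 9.88, 17.7 and 9.63 in Dox-, with an exact permutation p of 0.3.

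**Figure D3:**
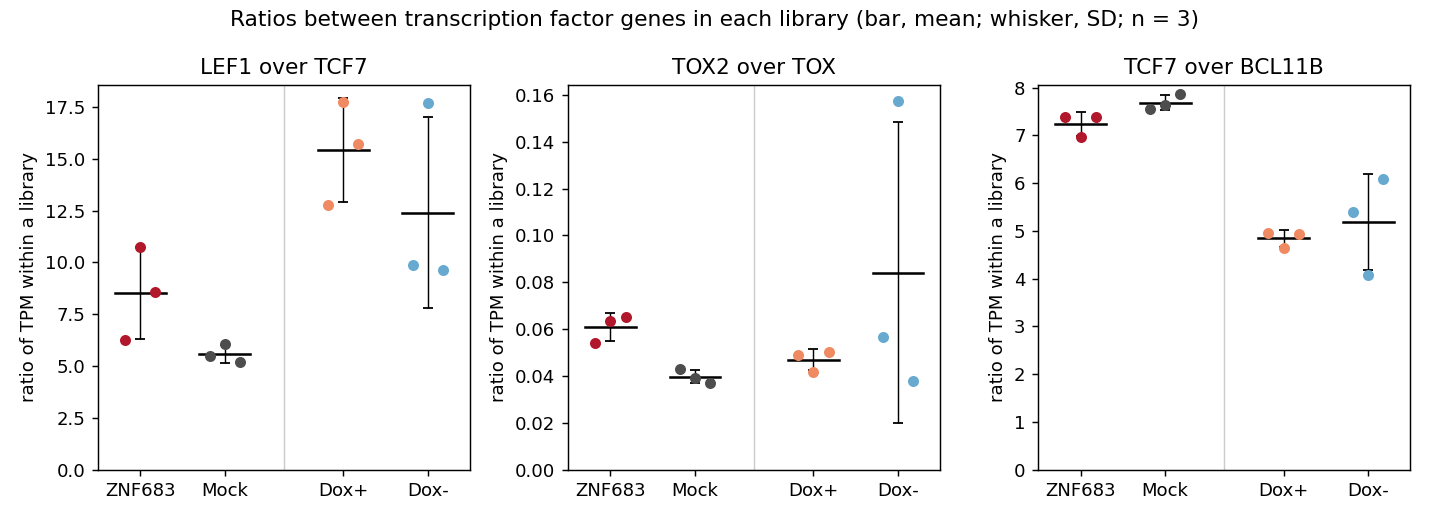
Ratios of TPM within each library for LEF1 to TCF7, TOX2 to TOX and TCF7 to BCL11B, with ZNF683 left of Mock and Dox+ left of Dox-; points are replicates 1 to 3 from left to right, bars are means and whiskers SD (n = 3). LEF1 to TCF7 and TOX2 to TOX do not overlap between ZNF683 and Mock, while Dox- 2 is the high point for both among the Dox- libraries.

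IKZF1 had 129.6, 131 and 129 TPM in Dox+, against 57.5, 29.1 and 122 TPM in Dox-. The Dox+ libraries were nearly equal, the Dox- libraries spread over a wide range, and the groups did not overlap. The log2 change was 1.12 ± 0.43 by limma, with an adjusted p of 0.541 and an unadjusted p of 0.00919. After scaling the values were 112, 114 and 114 in Dox+, against 99.1, 29.2 and 102 in Dox-, with a log2 change of 0.76 ± 0.46 that was 0.17 without Dox- 2. SATB1 had 85.6, 86.6 and 87.7 TPM in Dox+, against 42.2, 47.9 and 91.0 TPM in Dox-. BCL11B had 20.8, 16.5 and 15.5 TPM in Dox+, against 11.5, 8.87 and 18.7 TPM in Dox-. These are a chromatin organiser and a lineage factor of thymocytes, and for both Dox- 3 lay within or above the Dox+ range and the other Dox- libraries below it. Scaled log2 changes were 0.23 for SATB1 and 0.11 for BCL11B, and scaled without Dox- 2 they were 0.03 and -0.19.

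BACH2 was high in a single Dox- library. It had 3.92, 4.40 and 3.27 TPM in Dox+, against 1.81, 14.9 and 4.53 TPM in Dox-, so that Dox- 2 held more than any other library. The log2 change was -0.37 ± 0.41 as deposited, -0.64 ± 0.50 after scaling and -0.03 when scaled without Dox- 2. TOX2 had 4.39, 3.48 and 3.86 TPM in Dox+, against 2.54, 7.66 and 2.97 TPM in Dox-. Here too Dox- 2 was the highest library, and the change was -0.02 ± 0.41 as deposited (limma adjusted p = 0.990), -0.31 ± 0.33 after scaling and 0.03 when scaled without Dox- 2. TOX had 89.3, 83.5 and 77.1 TPM in Dox+, against 44.7, 48.7 and 78.0 TPM in Dox-. As deposited it overlapped through Dox- 3 alone, and the scaled log2 change was 0.21 (0.04 without Dox- 2). The ratio of TOX2 to TOX was 0.0491, 0.0417 and 0.0501 in Dox+, against 0.0567, 0.157 and 0.0380 in Dox-, with an exact permutation p of 0.5.

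FOXP1 had 44.0, 42.7 and 37.6 TPM in Dox+, against 34.5, 52.2 and 43.9 TPM in Dox-. The groups overlapped, with a log2 change of -0.05 ± 0.43 as deposited, -0.42 ± 0.20 after scaling and -0.36 when scaled without Dox- 2. ID3 had 286, 334 and 356 TPM in Dox+, against 120.3, 344 and 288 TPM in Dox-. Dox- 1 was the low library, and the change was 0.50 ± 0.43 as deposited, 0.13 after scaling and 0.34 when scaled without Dox- 2. No test of these genes passed, and the number of reads behind each value is unknown.

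**Figure D4:**
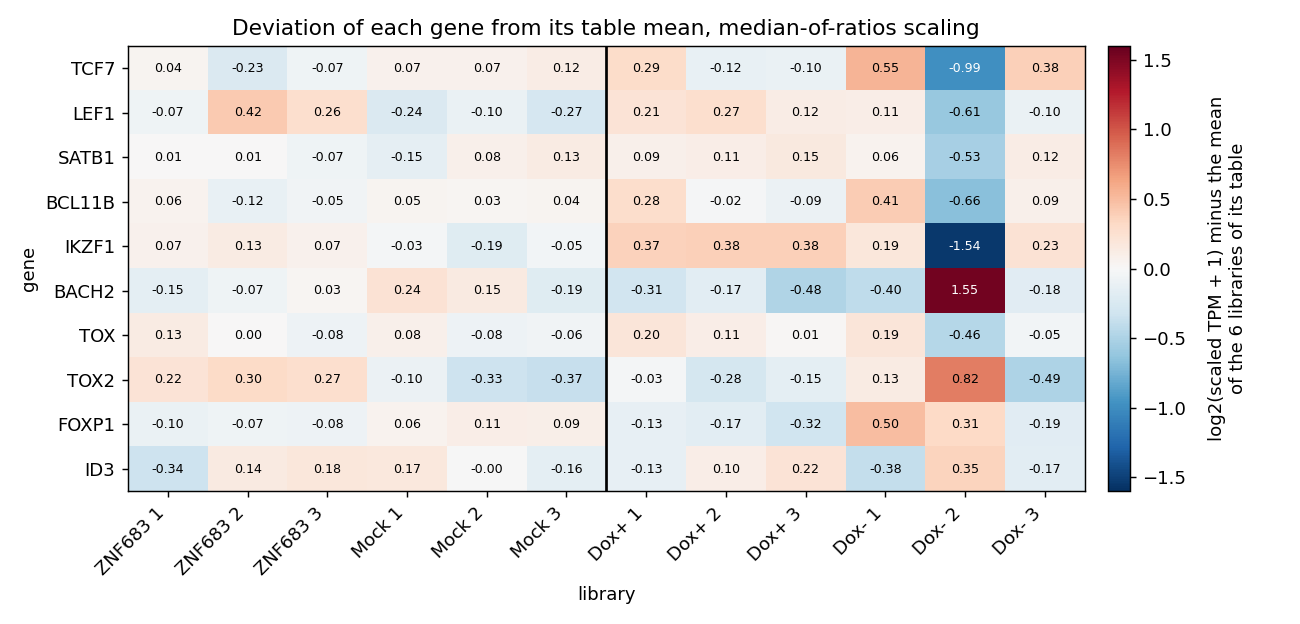
Log2(scaled TPM + 1) of each gene in each library minus its mean over the 6 libraries of its table; columns are libraries, with ZNF683 left of Mock and Dox+ left of Dox-. Dox- 2 holds the extremes, from -1.54 for IKZF1 to 1.55 for BACH2.

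The effects of the 2 comparisons were set against each other in a single limma contrast over the 12 libraries. Of the 10 genes 0 passed after adjustment, beside 0.0138% of 14468 genes tested (2 genes), and 0 had an unadjusted p under 0.05 as deposited. The difference, ZNF683 effect minus doxycycline effect, was 0.57 ± 0.41 for TOX2, -0.33 ± 0.39 for LEF1 and -0.91 ± 0.49 for IKZF1. After scaling, TOX2 differed by 0.84 ± 0.37 (unadjusted p = 0.0435, limma adjusted p = 0.939) and LEF1 by 0.00, with 0 of the 10 passing beside 0.00691% of all genes. Scaled without Dox- 2, TOX2 differed by 0.50 ± 0.24, with an unadjusted limma p of 0.0606. As deposited and without Dox- 3, 5 of the 10 passed (TCF7, SATB1, BCL11B, IKZF1 and TOX), beside 17.7% of all genes.

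Across the 12 libraries, each gene's scaled log2 values centred on the mean of its table were compared with those of 9633 other genes (9634 for TOX2) that averaged 5 TPM or more in each table. These correlations describe shared variation, which includes Dox- 2, and carry no test. The gene most like TCF7 was its fellow member BCL11B, with Pearson's r of 0.969 and Spearman's rho of 0.923, and r of 0.838 without the 2 libraries farthest from the median. Within the ZNF683 and Mock libraries alone r was 0.963, and within the doxycycline libraries 0.970. ZFP62 and GFRA1 followed for TCF7, at r of 0.946 and 0.943, which fell to 0.693 and 0.689 without the 2 farthest libraries. For LEF1 the likest genes were PTPN9, CERK and TLNRD1, at r of 0.967, 0.966 and 0.942, and for TOX2 they were C16orf87, ATF5 and RAP1A, at 0.951, 0.931 and 0.926.

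TCF7 and LEF1 were not alike in both sets of libraries. Their r was -0.963 over the 6 ZNF683 and Mock libraries and 0.709 over the 6 doxycycline libraries, where Dox- 2 was low for both. IKZF1 and BACH2 had r of -0.963 over the 12, with Dox- 2 at opposite ends for the 2 genes. The ratio of TCF7 to BCL11B was 7.39, 6.96 and 7.39 in ZNF683 libraries, against 7.56, 7.64 and 7.87 in Mock, with no overlap and an exact permutation p of 0.1. It was 4.95, 4.64 and 4.93 in Dox+, against 5.40, 4.09 and 6.08 in Dox-, with an exact permutation p of 0.7.

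None of the genes listed as partners or targets of the TCF/LEF factors passed in the comparisons. Of 17 partners tested (beta-catenin, its inhibitors, TLE co-repressors and destruction complex genes), 0 passed by limma for ZNF683 against Mock. Changes were positive for 11 and negative for 6, with a median of 0.03, and 1 gene had an unadjusted p under 0.05, beside 13% of all genes. CTNNBIP1, an inhibitor of the beta-catenin and TCF interaction, had 43.2, 75.9 and 61.2 TPM in ZNF683 libraries, against 37.9, 36.4 and 44.7 TPM in Mock, with overlap. TCF7L1, another TCF gene, had 1.00, 1.01 and 0.981 TPM in ZNF683 libraries, against 1.46, 1.75 and 1.24 TPM in Mock, without overlap (limma adjusted p = 0.398). Of 5 Wnt and TCF/LEF target genes tested 0 passed (0 at an unadjusted p under 0.05), with 2 positive and 3 negative. AXIN2, a feedback target of the pathway, had 1.82, 1.91 and 2.51 TPM in ZNF683 libraries, against 1.25, 1.68 and 1.77 TPM in Mock, without overlap. For Dox+ against Dox-, 0 of 15 partners and 0 of 4 targets passed (0 and 0 at an unadjusted p under 0.05), with scaled medians of 0.06 and 0.13, and 2 partners passed as deposited without Dox- 3, beside 18.4% of all genes in that fit, and 0 did after scaling.

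E proteins and genes of early T cell development that they act on were read beside ID3, which encodes their inhibitor. Of 9, 0 passed by limma for ZNF683 against Mock and 3 had an unadjusted p under 0.05, beside 13% of all genes. Groups did not overlap for 3 on the lower side (DNTT, RAG1 and PTCRA), beside 8.51% of all genes, and for 1 on the higher side, the E protein gene TCF3, beside 8.71%. DNTT, the terminal transferase of antigen receptor joining, had 213, 208 and 197 TPM in ZNF683 libraries, against 425, 491 and 317 TPM in Mock. All ZNF683 values were well below all Mock values, with a log2 change of -0.97 ± 0.16 (limma adjusted p = 0.222). DNTT passed as deposited when Mock 3 was left out (limma adjusted p = 0.0402), where 8 genes were called in all. It passed in no other fit of the values as deposited with 1 library left out. RAG1, a subunit of the recombinase, had 1.54, 1.94 and 1.63 TPM in ZNF683 libraries, against 3.50, 7.996 and 5.18 TPM in Mock (log2 change -1.22 ± 0.24, limma adjusted p = 0.225). PTCRA, whose product pairs with the beta chain in immature thymocytes, had 5.44, 6.14 and 6.59 TPM in ZNF683 libraries, against 7.54, 10.0 and 8.27 TPM in Mock (limma adjusted p = 0.308). DNTT, RAG1 and PTCRA overlapped for Dox+ against Dox-. Their log2 changes were 0.17, 0.15 and 0.75 as deposited and -0.20, -0.07 and 0.47 after scaling. In that comparison 0 of the 9 passed (2 at an unadjusted p under 0.05, beside 6.34% of all genes), and the scaled median of the 9 was 0.11. As deposited without Dox- 3, 2 of them (PTCRA and CD8B) passed, beside 18.4% of all genes in that fit, and 0 did after scaling.

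Other genes of the same families were read beside the 10. Of 11 tested, 0 passed by limma for ZNF683 against Mock (3 at an unadjusted p under 0.05, beside 13% of all genes). BCL11A, the paralog of BCL11B, had 68.4, 85.6 and 68.4 TPM in ZNF683 libraries, against 93.5, 142 and 111 TPM in Mock, with no overlap and a log2 change of -0.62 ± 0.17 (limma adjusted p = 0.283). ID2, the relative of ID3, had 5.45, 9.07 and 7.49 TPM in ZNF683 libraries, against 4.26, 4.97 and 5.15 TPM in Mock, with no overlap (limma adjusted p = 0.336). BCL11A and ID2 overlapped for Dox+ against Dox-, with log2 changes of 0.36 and -0.42 as deposited and -0.01 and -0.69 after scaling. In that comparison 0 of 11 passed (1 at an unadjusted p under 0.05, beside 6.34% of all genes). ID1 had 14.7, 14.5 and 14.7 TPM in Dox+, against 3.95, 3.38 and 11.6 TPM in Dox- (log2 change 1.27 ± 0.42, limma adjusted p = 0.303). As deposited without Dox- 3, 2 of the 11 (ID1 and IKZF2) passed, beside 18.4% of all genes in that fit, and 0 did after scaling.

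Other lymphoid factors, chromatin partners and surface genes were listed too. Of 20 other lymphoid transcription factors, 0 passed by limma in either comparison. At an unadjusted p under 0.05 there were 4 for ZNF683 against Mock, beside 13% of all genes, and 0 for Dox+ against Dox-, beside 6.34%. For ZNF683 against Mock 14 were positive and 6 negative, beside 54.9% positive over all genes. Without overlap 4 were higher (KLF7, RUNX3, ZBTB16 and NFATC1), beside 8.71% of all genes, and 1 lower (RUNX1), beside 8.51%. After scaling RUNX3 and NFATC1 overlapped, and MYB was higher without overlap. The scaled counts were 3 higher, beside 9.44% of all genes, and 1 lower, beside 10.1%. ZBTB16, NFATC1, MYB and the E protein gene TCF3 are named after their values were seen. KLF7 had 8.43, 7.74 and 6.98 TPM in ZNF683 libraries, against 5.54, 4.72 and 5.73 TPM in Mock (log2 change 0.46 ± 0.12, limma adjusted p = 0.283). RUNX1 had 34.4, 37.3 and 37.5 TPM in ZNF683 libraries, against 48.3, 55.3 and 47.2 TPM in Mock, with no overlap (log2 change -0.45 ± 0.10, limma adjusted p = 0.271). KLF7 and RUNX1 overlapped for Dox+ against Dox-, with log2 changes of 0.34 and -0.12 as deposited and 0.04 and -0.48 after scaling. GATA3 had 78.5, 78.0 and 72.4 TPM in Dox+, against 29.1, 45.6 and 61.8 TPM in Dox-, with no overlap (limma adjusted p = 0.737). Of 24 NuRD and BAF subunits, complexes that Ikaros and BCL11B join, 0 passed in either comparison. At an unadjusted p under 0.05 there were 3 and 0, in the same order, beside 13% and 6.34% of all genes. SMARCC1 had 44.0, 55.8 and 50.3 TPM in ZNF683 libraries, against 30.0, 26.5 and 38.5 TPM in Mock. ARID1B had 25.6, 24.6 and 29.4 TPM in ZNF683 libraries, against 37.9, 43.7 and 34.4 TPM in Mock. SMARCC1 and ARID1B overlapped for Dox+ against Dox-, with log2 changes of 0.40 and 0.26 as deposited and 0.03 and -0.09 after scaling. Of 8 naive and memory T cell genes, 0 passed in either comparison (2 and 0 at an unadjusted p under 0.05, beside 13% and 6.34% of all genes). CCR7, a chemokine receptor of lymph node homing, had 5.22, 5.58 and 4.31 TPM in ZNF683 libraries, against 3.10, 3.63 and 3.74 TPM in Mock. As deposited without Dox- 3, 3 of the 20 factors, 6 of the 24 subunits and 2 of the 8 naive and memory genes passed, beside 18.4% of all genes in that fit, and 0 did after scaling.

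**Figure D5:**
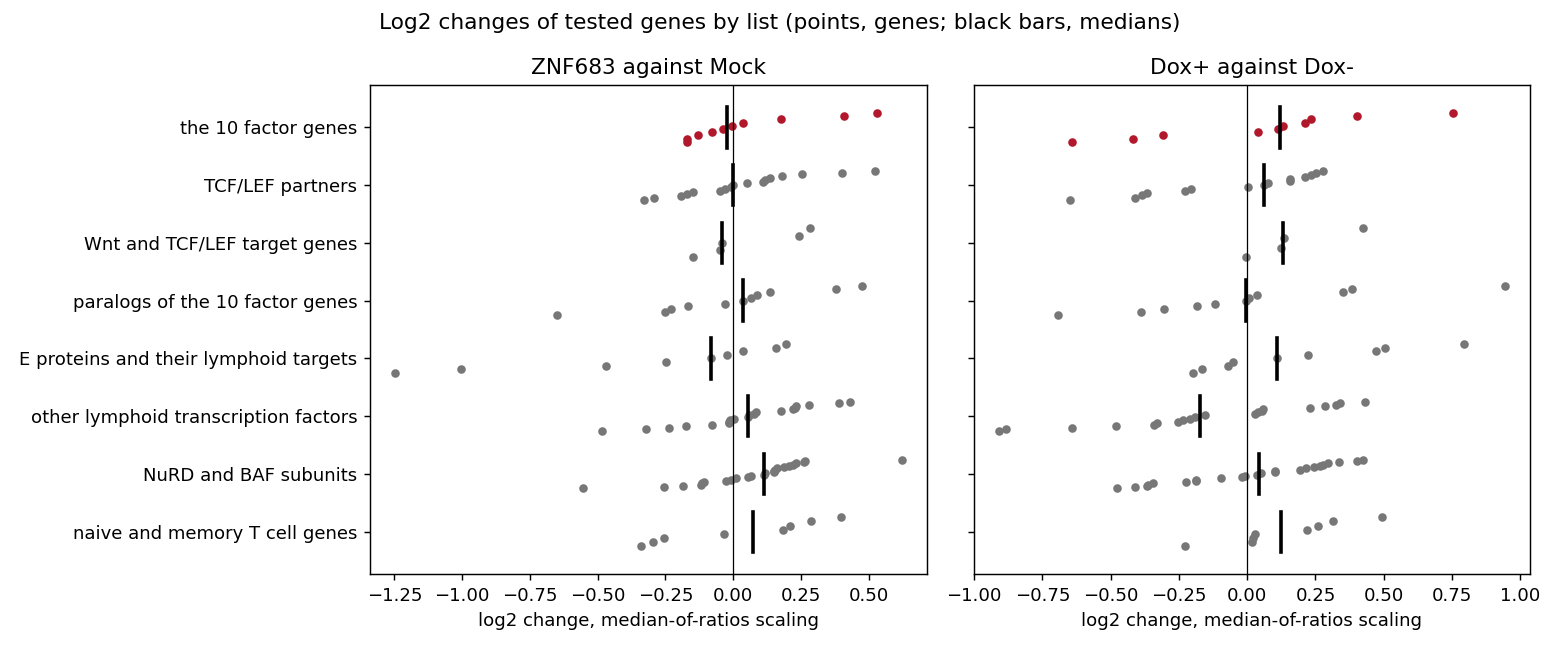
Log2 changes of the 10 factors (red points) and of the genes of 7 lists (grey points; lineage marker lists are not drawn) with each median (bar), for ZNF683 minus Mock and Dox+ minus Dox-, after median-of-ratios scaling. The drawn medians lie from -0.17 for other lymphoid transcription factors to 0.13 for Wnt and TCF/LEF target genes, both in Dox+ against Dox-.

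Lineage markers were read beside these factors. All 12 T cell markers were tested in both tables, with summed levels of 6630 to 7350 TPM in ZNF683 libraries and 6347 to 7922 TPM in Mock. Their sums were 5725 to 6136 TPM in Dox+ and 2500 to 5443 TPM in Dox-, and 7 of the 12 did not overlap as deposited (8 after scaling), all higher in Dox+, beside 7.91% of all genes (5.82% after scaling). For ZNF683 against Mock 3 of the 12 did not overlap (TRAT1, CD2 and CD7), all higher in ZNF683, beside 8.71% of all genes. After scaling 2 were higher without overlap, beside 9.44%. TRAT1 had 106, 130 and 99.5 TPM in ZNF683 libraries, against 50.6, 61.8 and 83.6 TPM in Mock (limma adjusted p = 0.277). With all libraries 0 of the 12 passed by limma in either table. At an unadjusted p under 0.05 there were 4 for Dox+ against Dox-, beside 6.34% of all genes, and 2 for ZNF683 against Mock, beside 13%. For doxycycline as deposited without Dox- 3, 10 passed, beside 18.4% of all genes in that fit, and 0 did after scaling. B cell markers summed to 45.6 to 65.6 TPM in ZNF683 libraries and 51.6 to 73.6 TPM in Mock, and to 32.0 to 38.1 TPM in Dox+ and 14.6 to 30.6 TPM in Dox-. Myeloid markers summed to at most 4.33 TPM in the 12 libraries and natural killer cell markers to at most 20.6 TPM. Erythroid markers summed to 1.42 to 2.41 TPM in Dox+ and to 0.735 to 35.5 TPM in Dox-, the high value being Dox- 2. HBA2 had 0, 0.343 and 0 TPM in Dox+, against 0.206, 14.8 and 0.444 TPM in Dox-. It met the filter of 1 TPM only through Dox- 2, and its groups overlapped as deposited. Its limma call as lower in Dox+ as deposited (adjusted p = 0.0437) rests on that library and was not made after scaling. With 1 library left out, 0 erythroid markers were called. The part of these marker lists in the values of the 10 factors was not tested. In bulk RNA, fewer cells of a type and less RNA per cell cannot be told apart.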

How the data were processed

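RNA was sequenced from 12 Jurkat libraries, grown in RPMI with 10% fetal calf serum, extracted with a Qiagen RNeasy kit and made with a NEBNext low-input kit, per the labels' protocols. The authors deposited TPM per gene symbol in 2 tables. Kallisto 0.46.0 and DESeq2 1.22.2 appear, without a stated role, in the submitters' processing notes. The genome build and transcript set are not given in the sources used here. TPM keeps no depth, so no interval was computed and no count model was run.

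Groups came from the sample titles and labels. Each table was fitted alone on log2(TPM + 1), in genes averaging 1 TPM or more across its 6 libraries, with limma 3.58.1 in R 4.3.3 (empirical Bayes with a mean-variance trend, two-sided, Benjamini-Hochberg adjustment over all genes tested, threshold 0.05). Log2 changes understate those of low genes. In the doxycycline table the prior degrees of freedom were unlimited, so tests there rest on the spread of genes of like level. The fit was tested on simulated data. Single values were compared by exact permutation. Named genes were the 10 members, up to 3 per list with the smallest limma p in each comparison, and the 3 genes most correlated with TCF7, LEF1 and TOX2. The members and lists were chosen with earlier results of these data known. Alternatives were other scalings, pseudocounts and filters, robust and trend-free moderation, a replicate block and leaving out each library. Gene overlaps are from GENCODE v29 and promoters from RefSeq.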

Additional observations from a re-analysis of the deposited data

How the results depend on the processing

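For ZNF683 against Mock, 5 genes were called, and 0 of the 10 factors under every alternative run. The count of genes was 3 with a pseudocount of 0.1, 8 with robust moderation, and 0 with no filter, with the replicate block, or with scaling and the block. Leaving out 1 library gave 0 (without Mock 2) to 49 (without ZNF683 1), and 0 to 45 after scaling. For Dox+ against Dox-, 60 genes were called (19 higher and 41 lower), against 23 with robust moderation, 34 with the replicate block, and 0 with scaling, scaling and the block, no filter, AL135790.1 left out, or Dox- 1 and Dox- 2 left out together. Leaving out 1 library gave 0 to 2788 genes and 0 to 4 of the 10 factors. After scaling, leaving out 1 Dox- library gave 0 to 1 genes, and leaving out a Dox+ library was not run. The difference of effects called 0 to 5 of the 10 factors, the 5 (TCF7, SATB1, BCL11B, IKZF1 and TOX) without Dox- 3.

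Changes of sign were all of values that did not pass. For ZNF683 against Mock, ID3 was -0.0061 with scaling, with or without the block, and -0.066 to 0.19 with 1 library left out, and SATB1 was -0.13 to 0.075. Scaled and with 1 library left out, ID3 was -0.081, -0.094, -0.012 and -0.086 (without ZNF683 2, ZNF683 3, Mock 2 and Mock 3), TOX -0.023 (without ZNF683 1) and SATB1 0.016 (without Mock 3). For Dox+ against Dox-, TOX2 was 0.00744 with a pseudocount of 0.1, and with 1 library left out TOX2 was -0.26 to 0.39, FOXP1 -0.21 to 0.084 and BACH2 -0.95 to 0.30. With Dox- 1 and Dox- 2 left out, TCF7 was -0.42, SATB1 -0.071, BCL11B -0.0911 and TOX2 0.30. Scaled, ID3 was -0.018 without Dox- 1, and without Dox- 2 TCF7 was -0.44, BCL11B -0.19 and TOX2 0.029. The difference of effects was 0.0041 for LEF1 and 0.24 for FOXP1 with scaling. With 1 library left out it was -0.22 to 0.068 for FOXP1 and -0.40 to 0.85 for BACH2. Scaled without Dox- 2 it was 0.27 for TCF7, 0.21 for LEF1, 0.11 for BCL11B, 0.0038 for IKZF1, -0.10 for BACH2 and 0.19 for FOXP1. AL135790.1 left out, Dox- 1 and Dox- 2 left out together, the within-library ratios and scaling with a library left out were chosen after seeing the data. The cause of the sign changes was not tested.

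Deviations of same-numbered libraries, as deposited, correlated at -0.21, 0.07 and -0.25 for ZNF683 with Mock. For Dox+ with Dox- they correlated at 0.08, 0.05 and 0.36. With 3 libraries in each group, these values cannot decide whether the replicate numbers pair the libraries.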
